A study of Mus musculus with 12 samples.

Results

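Endothelial cells are held to one another by adherens junctions, tight junctions and a set of immunoglobulin family adhesion molecules, and 10 genes of these structures were followed here in SVR tumors. The 10 genes were selected by symbol from the 54232 genes of the count table, and each symbol matched 1 gene. They are Cdh5, Pecam1, Icam2, Esam, F11r, Jam2, Jam3, Cldn5, Ocln and Tjp1. SVR is a mouse endothelial cell line transformed with the SV40 large T antigen and an activated H-ras gene, and it forms angiosarcoma-like tumors. SVR cells (strain field C57BL/6) were grown under the skin of adult athymic nude mice, which lack T cells, and the 12 tumors fell into 4 groups of 3. Control tumors received vehicle. Trametinib treated tumors received the MEK inhibitor at 1 mg/kg, cediranib treated tumors received the VEGF receptor inhibitor at 3 mg/kg, and combination treated tumors received both. All 4 groups were dosed daily by oral gavage, and per the labels dosing ran until tumors ulcerated or passed a size limit. The study also describes an experiment with a common time of harvest, and no source used here says which of the experiments was sequenced, so treatment time is unknown.

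VE-cadherin, the product of Cdh5, is the cadherin of endothelial adherens junctions and joins neighbouring cells through its extracellular repeats. Tight junctions seal the space between cells through claudins and occludin, which are tied to actin by the scaffold ZO-1, the product of Tjp1. The JAM family and PECAM-1 sit at the same contacts and also guide leukocytes that pass between the cells. These contacts are looser in tumor vessels than in normal vessels, and VEGF signalling is a known regulator of them.

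The tumors were lysed whole, and the SVR cells and their host are both mouse, so reads from tumor cells and from host vessels cannot be told apart. A lower level in such a bulk sample can come from fewer endothelial cells or from less RNA in each, and these cannot be told apart either. Libraries held 9478865 to 11666094 counts, and levels are given in CPM, the usual count scaled to library size, so that 3 counts, used as the floor of detection, stood at 0.251 to 0.349 CPM. All levels below are CPM scaled by edgeR's TMM factors. Fold changes, standard errors (SE) and false discovery rates (FDR, Benjamini-Hochberg over 12897 genes) come from edgeR's quasi-likelihood test on all 12 libraries, and a gene is said to have risen or fallen only at an FDR under 0.05. The labels name no animals, so the tests measure the spread between these tumors.

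The upstream sequences of 3 members that are described below as lower or higher in treated tumors are shown first. RefSeq promoter entries (GRCm38.p6) matched 4 of the 10 members: F11r, Tjp1, Ocln and Cldn5. Each window holds the 250 bases before an annotated start, 5′ to 3′ on the strand of the gene, and capitals mark the motif matches. F11r is on the plus strand at chr1:171437311-171437560, Tjp1 is on the minus strand at chr7:65371245-65371494 before a start inside the gene, and Ocln is on the minus strand at chr13:100552719-100552968.
F11r: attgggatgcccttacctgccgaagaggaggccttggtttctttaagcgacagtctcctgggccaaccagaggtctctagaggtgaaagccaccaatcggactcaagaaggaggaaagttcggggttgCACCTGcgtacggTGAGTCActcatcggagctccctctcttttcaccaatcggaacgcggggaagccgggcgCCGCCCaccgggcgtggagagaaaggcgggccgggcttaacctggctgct
Tjp1: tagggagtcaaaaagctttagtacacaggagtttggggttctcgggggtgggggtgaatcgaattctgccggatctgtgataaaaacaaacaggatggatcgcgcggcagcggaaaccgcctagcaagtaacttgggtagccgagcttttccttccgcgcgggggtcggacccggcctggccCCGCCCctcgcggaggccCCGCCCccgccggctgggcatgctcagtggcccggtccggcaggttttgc
Ocln: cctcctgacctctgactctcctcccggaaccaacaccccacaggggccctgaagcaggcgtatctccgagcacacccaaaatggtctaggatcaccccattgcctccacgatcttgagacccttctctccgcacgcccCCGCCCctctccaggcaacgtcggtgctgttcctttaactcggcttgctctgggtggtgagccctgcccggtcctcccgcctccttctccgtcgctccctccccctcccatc
4 motifs were searched on both strands: GGAAGT of ETS factors, TGANTCA of AP-1, GGGCGG of SP and KLF factors, and CAGGTG, an E-box. The F11r window held TGAGTCA, a match that 6.75% of the 32851 promoter windows hold. It also held CACCTG, the E-box on the other strand, which 17.2% of windows hold. CCGCCC, the reverse complement of GGGCGG, stood once in F11r, 2 times in Tjp1 and once in Ocln, and 32.7% of all windows hold that motif. The ETS motif, present in 19.7% of windows, had no match in these 3 windows. RefSeq also lists another Ocln start, whose window (minus strand, chr13:100552499-100552748) held 2 matches of CAGGTG and 1 of GGGCGG, and the Cldn5 window held 1 match, of GGGCGG. A match is a description of letters and not a binding site.

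Markers of the labelled endothelial line were present in control tumors, with means of 219.8 CPM for Nos3, 139.8 CPM for Tie1 and 11.1 CPM for Kdr. Nos3 and Tie1 were picked for their high levels from a list of 28 endothelial genes. Others of the list were low, such as Plvap at 1.15 CPM, Aplnr at 1.28 CPM and Myct1 at 1.08 CPM, and 22 of the 28 were tested. In these tumors the 10 members spanned a wide range of levels. Per kilobase of gene model, Tjp1 was highest at 29.5 ± 2.48 CPM per kb (SD, n = 3) and Cdh5 followed at 17.5 ± 9.69 CPM per kb. Esam stood at 3.39, F11r at 1.99, Jam3 at 1.32, Cldn5 at 0.643 and Pecam1 at 0.635 CPM per kb. The tight junction protein Ocln was near the floor at 0.0693 CPM per kb, with Icam2 at 0.0651 and Jam2 at 0.0308 CPM per kb. Among neighbours in this order, the control ranges of Tjp1 and Cdh5 overlapped, as did those of Esam and F11r, F11r and Jam3, Jam3 and Cldn5, Cldn5 and Pecam1, and Ocln and Icam2. The control ranges did not overlap between Cdh5 and Esam, between Pecam1 and Ocln, or between Icam2 and Jam2, the last pair at or under the floor. Reads in the control tumors were thus many for Cdh5, modest for Pecam1 and few or none for Icam2 and Jam2. The libraries were made by exome capture, and how well each gene was captured was not measured. The order is therefore one of captured reads, and a low count does not show that a gene or its product was absent.

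8 of the 10 members passed the low-count filter. Icam2 (ENSMUSG00000001029, chromosome 11) had 2, 1 and 1 counts in control, 2, 1 and 1 in trametinib, 0, 1 and 0 in cediranib and 2, 0 and 1 in combination treated tumors. Jam2 (ENSMUSG00000053062, chromosome 16) had 3, 3 and 0 counts in control, 0, 1 and 0 in trametinib, 2, 0 and 0 in cediranib and 1, 0 and 2 in combination treated tumors. Both genes were at or under the floor of 3 counts in every library, so no difference was detectable at this depth and no fold change is given. Of the tested members, Cldn5 passed the filter through 3 libraries (control 2, control 3 and trametinib 2), Ocln through cediranib 1, cediranib 3 and combination 2, and Pecam1 through 7 libraries that include all control and cediranib treated tumors. These 3 genes were therefore tested because some groups were high, and the counts of members below are descriptions.

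**Figure D1:**
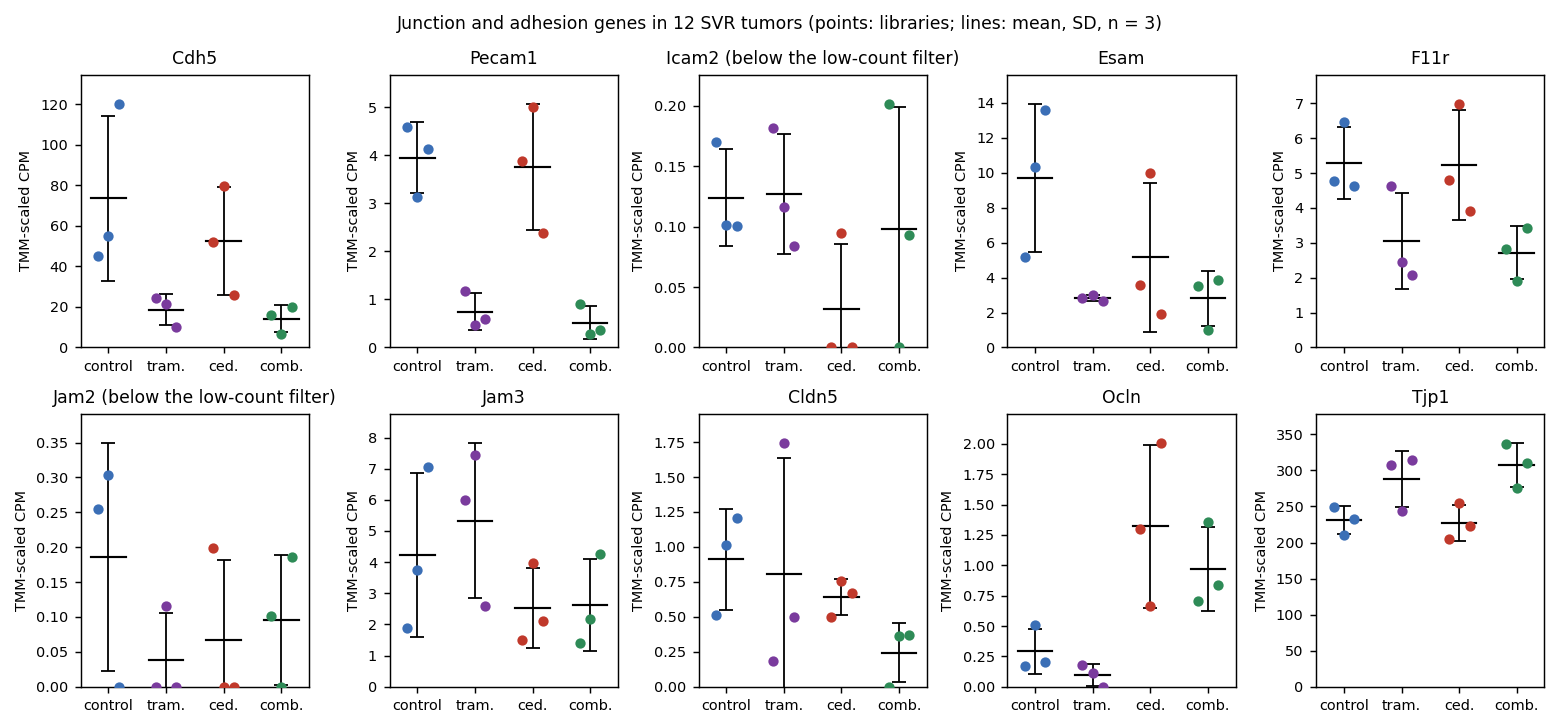
TMM-scaled CPM (vertical axes, linear from 0, each gene on its own scale) of the 10 members in control, trametinib (tram.), cediranib (ced.) and combination (comb.) treated tumors. Each point is 1 library, and black lines show the mean and SD of 3; Cdh5 and Pecam1 are low in both groups given trametinib, Tjp1 has higher means there, and Ocln is highest in the groups given cediranib.

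Cdh5, the adherens junction cadherin (ENSMUSG00000031871, chromosome 8, 104101625 to 104144511, GRCm38), was lower in every tumor given trametinib than in any tumor not given it. Cdh5 stood at 45.2, 55.1 and 120.2 CPM in control tumors and at 52.3, 79.5 and 25.98 CPM in cediranib treated tumors. It stood at 24.4, 21.3 and 9.86 CPM in trametinib treated tumors and at 15.8, 6.89 and 19.8 CPM in combination treated tumors. The lowest library without trametinib, cediranib 3 at 25.98 CPM, lay just above the highest library with it, trametinib 1 at 24.4 CPM. Against control, Cdh5 fell by 1.99 on the log2 scale with trametinib (SE 0.52, FDR 0.0424) and by 2.37 with the combination (SE 0.53, FDR 0.0173). Over all 6 tumors given trametinib against the 6 not given it, averaged over cediranib, the log2 fold change was -1.94 (SE 0.37, FDR 0.00391), a 3.84-fold lower level. The trametinib against control call rests on a wide spread: leaving out 1 library gave log2 fold changes of -2.25 to -1.44 and lost the call in 5 of 6 cases, all but that of control 1, and without control 3 the value was -1.44 (FDR 0.164). The combination call was lost without control 3, combination 1 or combination 2, and with the epidermal score described below as a term in the fit it was -1.31 (FDR 0.466). In that fit the genes past the test among all tested went from 1286 to 107. The epidermal score itself separates control from combination treated tumors, so score and treatment overlap there.

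Pecam1, which encodes PECAM-1 (CD31), the immunoglobulin family molecule used to stain vessels (ENSMUSG00000020717, chromosome 11, 106654217 to 106750628), showed the same division. Pecam1 stood at 4.59, 3.14 and 4.13 CPM in control and at 3.89, 5.00 and 2.39 CPM in cediranib treated tumors. It stood at 1.18, 0.465 and 0.585 CPM in trametinib and at 0.907, 0.272 and 0.371 CPM in combination treated tumors. These are small numbers of reads, 126 counts over the 3 control libraries and 16 over the 3 combination libraries, and combination 2 was at the floor with 3 counts. Pecam1 fell by 2.38 on the log2 scale with trametinib against control (SE 0.47, FDR 0.0111), the combination gave -2.93 (SE 0.49, FDR 0.0059), and trametinib given against not given was -2.62 (SE 0.34, FDR 0.000373). The last value is a 6.14-fold lower level, and it kept its call with any 1 of the 12 libraries left out. The trametinib against control call was lost without trametinib 3 (FDR 0.0501), and that of the combination was lost with the epidermal score in the fit (-2.66, FDR 0.09). The limit given for that fit under Cdh5 holds here too.

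The members that passed the test in these comparisons were few. In trametinib against control 2 of 8 tested members fell and none rose, where 3.47% of all tested genes fell and 2.64% rose. In combination against control 2 of 8 fell and none rose, where 5.13% of all tested genes fell and 4.85% rose. Both comparisons share the 3 control tumors, so they are not independent of each other. In trametinib given against not given 4 of 8 members fell and 1 rose, where 8.54% of all tested genes fell and 8.2% rose. Cdh5 and Pecam1 were also the 2 members whose 6 libraries with trametinib lay wholly below the 6 without it, which 4.34% of tested genes did. The median log2 fold change of the 8 members was -1.13, -1.37 and -0.91 in these 3 comparisons, and the median of all tested genes was within 0.01 of zero in each.

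**Figure D2:**
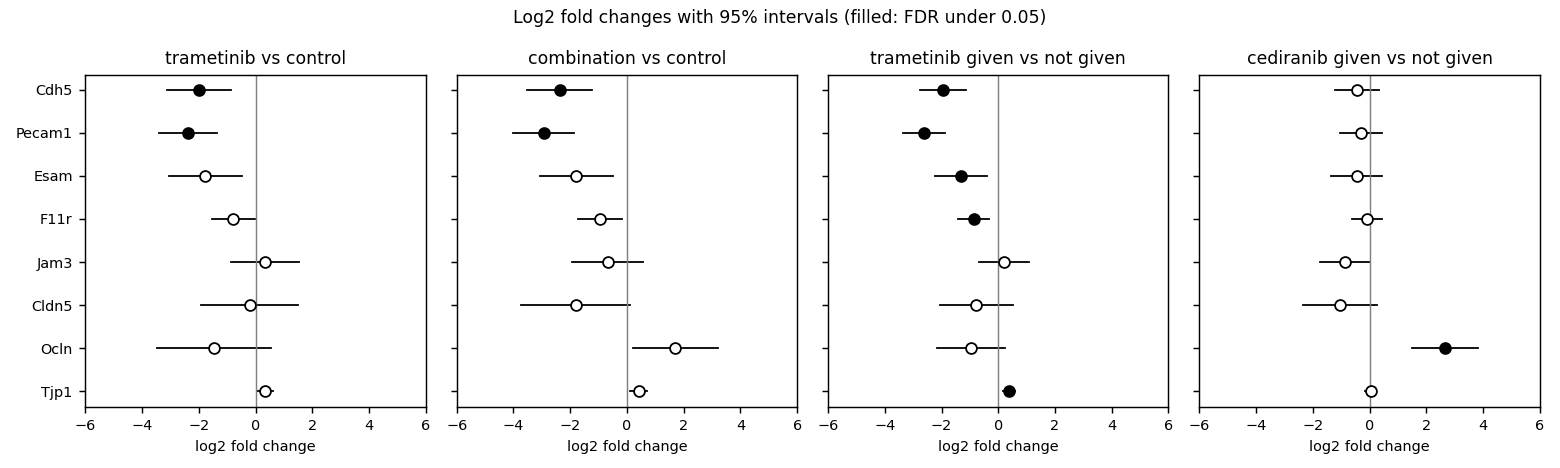
Log2 fold changes (horizontal axis) of the 8 tested members with 95% intervals from the edgeR fit, in trametinib against control, combination against control, trametinib given against not given and cediranib given against not given. Filled points have an FDR under 0.05; Cdh5 and Pecam1 are filled and below 0 in the first 3 panels, and only Ocln is filled in the last.

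The JAM family members differed among themselves. Esam (ENSMUSG00000001946, chromosome 9, 37528078 to 37537547), an adhesion molecule of endothelial cells and platelets, stood at 5.19, 10.3 and 13.6 CPM in control and at 2.81, 3.02 and 2.67 CPM in trametinib treated tumors. It stood at 3.59, 10.0 and 1.91 CPM with cediranib and at 3.53, 0.997 and 3.89 CPM with both drugs, and the cediranib libraries spread across the range of the other groups. F11r (ENSMUSG00000038235, chromosome 1, 171437535 to 171464603) encodes JAM-A, which tight junctions and platelets carry. F11r stood at 4.76, 6.48 and 4.64 CPM in control, 4.62, 2.44 and 2.09 CPM in trametinib, 4.79, 6.99 and 3.92 CPM with cediranib and 2.82, 1.90 and 3.43 CPM with the combination. For both genes the control and trametinib libraries did not overlap, as for 12.9% of all tested genes in that direction, and neither passed the test there (Esam -1.77, SE 0.59, FDR 0.107, and F11r -0.79, SE 0.35, FDR 0.227). The combination against control gave -1.79 for Esam (SE 0.59, FDR 0.077) and -0.96 for F11r (SE 0.35, FDR 0.106). These results hung on the settings: of 15 alternatives, Esam passed in 5 for trametinib against control and in 3 for the combination against control. None of these was a fit with 1 library left out, and F11r passed in 0 of 15 for either comparison. With trametinib given, Esam fell by 1.33 on the log2 scale (SE 0.42, FDR 0.0493) and F11r by 0.87 (SE 0.25, FDR 0.0329). Both calls were near the threshold: leaving out 1 library lost that of Esam in 10 of 12 cases, all but control 1 and cediranib 3, and that of F11r in 7 of 12 cases, which were control 2, trametinib 2 and 3, cediranib 1 and 2 and combination 1 and 2.

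Jam3 (ENSMUSG00000031990, chromosome 9, 27097384 to 27155393), which encodes JAM-C, did not separate the groups. Jam3 stood at 1.87, 3.74 and 7.06 CPM in control, 5.98, 7.44 and 2.59 CPM in trametinib, 1.496, 3.97 and 2.10 CPM with cediranib and 1.41, 2.17 and 4.26 CPM with the combination, and all 4 ranges overlapped. Its log2 fold change was 0.33 with trametinib against control (SE 0.55, FDR 0.799) and 0.19 with trametinib given (SE 0.40, FDR 0.794), with a 95% interval of -0.68 to 1.07. The combination against control gave -0.68 (SE 0.57, FDR 0.484). An antisense gene, Gm48796, overlaps Jam3 and has 282 counts of its own, and no source used here gives the strand setting of the counting, which leaves the Jam3 values uncertain.

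Of the tight junction members, the scaffold Tjp1 rose where the cadherin fell. Tjp1 (ENSMUSG00000030516, chromosome 7, 65296165 to 65527696) stood at 249, 210 and 232 CPM in control and at 205, 255 and 222 CPM in cediranib treated tumors. It stood at 308, 244 and 314 CPM in trametinib and at 336, 275 and 311 CPM in combination treated tumors. The ranges with and without trametinib overlapped through trametinib 2 at 244 CPM, and the other 5 tumors given the drug were above all 6 that were not. Tjp1 rose by 0.38 on the log2 scale with trametinib given (SE 0.095, FDR 0.017), a 1.30-fold higher level, and this call held with any 1 library left out. The separate comparisons gave 0.32 for trametinib against control (SE 0.13, FDR 0.193) and 0.41 for the combination against control (SE 0.13, FDR 0.0709). The ratio of Tjp1 to Cdh5 within a library, per kilobase, does not depend on scaling between libraries. It ran from 1.04 to 4.61 in the 6 tumors without trametinib and from 6.17 to 21.5 in the 6 given it, with no overlap. Cdh5 alone already separates these tumors, so the lack of overlap is no separate result. The ratios of Pecam1, Esam and F11r to Cdh5 overlapped between the same sets of tumors.

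Cldn5 (ENSMUSG00000041378, chromosome 16, 18776847 to 18778262), the main claudin of endothelial tight junctions, was low throughout. It stood at 0.510, 1.01 and 1.21 CPM in control, 0.181, 1.74 and 0.501 CPM in trametinib, 0.499, 0.755 and 0.669 CPM with cediranib and 0, 0.362 and 0.371 CPM with the combination. The combination libraries lay below all control libraries, as in 15.7% of tested genes, but with 8 counts in all they carried little precision. No comparison passed the test: the log2 fold change was -1.81 for the combination against control (SE 0.88, FDR 0.209), -0.21 for trametinib against control (SE 0.78, FDR 0.918) and -0.77 for trametinib given (SE 0.60, FDR 0.427).

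Ocln (ENSMUSG00000021638, chromosome 13, 100496507 to 100552718), which encodes occludin, a membrane protein of epithelial and endothelial tight junctions, was higher in tumors given cediranib. Ocln stood at 0.170, 0.506 and 0.202 CPM in control and 0.181, 0.116 and 0 CPM in trametinib treated tumors. It stood at 1.30, 0.661 and 2.01 CPM with cediranib and at 0.706, 1.36 and 0.834 CPM with both drugs. All 6 tumors given cediranib were above all 6 not given it, which 0.326% of tested genes were. The counts were small, 72 over the first 6 libraries and 12 over the other 6. With cediranib given Ocln rose by 2.67 on the log2 scale (SE 0.53, FDR 0.0456), the single member of 8 that passed, where 0.651% of all tested genes rose. Ocln entered the test only through libraries given cediranib, so this value and its values in the other comparisons below are descriptions, and nothing is read from that share. The number of genes past the test in this comparison, 100, also hung on single libraries and ran from 1 (without control 2, cediranib 3 or combination 3) to 339 (without cediranib 2). Leaving out 1 library lost this call in 10 of 12 cases, all but control 1 and cediranib 2, with FDR values from 0.0147 to 0.113. The separate values were 2.15 for cediranib against control (SE 0.68, FDR 0.999), 3.19 for the combination against trametinib (SE 0.81, FDR 0.0773) and 1.71 for the combination against control (SE 0.69, FDR 0.135). Between trametinib and cediranib treated tumors Ocln passed the test (log2 fold change -3.63, SE 0.80, FDR 0.0167), a call lost without trametinib 2, trametinib 3 or cediranib 3. The trametinib libraries held 3 counts in all, so the fitted value depends on how such counts are treated: by summed counts, cediranib exceeded trametinib treated tumors 13.9-fold, with an exact interval of 4.43 to 70.1 that covers counting error only. For trametinib against control the fitted value was -1.48 (SE 0.92, FDR 0.404), and for trametinib given it was -0.96 (SE 0.55, FDR 0.272).

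Markers of the epidermis moved in part with Ocln. Occludin is present in epithelia as well as in endothelium. Over a list of 21 epidermal genes, summed CPM ran from 28.7 to 662 in control, 37.6 to 51.4 in trametinib, 53.4 to 2976 in cediranib and 3141 to 4681 in combination treated tumors. The epidermal score, an average of log2 CPM over the 18 genes of the list that were tested, was 4.31 in cediranib 1, -0.23 in cediranib 2 and 4.22 in cediranib 3, and 4.57 to 5.06 in combination treated tumors. The 5 highest Ocln levels were in the 5 libraries with a score above 4. Cediranib 2 had 7 Ocln counts, and control 1, with a score of 2.81, had 2. Only 3 of the 12 libraries had the same rank by Ocln and by the score, and the largest gap was 4 ranks. 8 of the 18 tested genes rose with cediranib given and none fell. The 4 with the smallest FDR were Lor, Sfn, Pkp3 and Krt15, genes of keratinocytes and their desmosomes. None of the 21 genes was at 0 in all 12 libraries. With the epidermal score as a term in the fit, the Ocln value was 1.86 at an FDR of 1. In that fit 0 of all 12897 tested genes passed with cediranib given, against 100 without the score, so the loss is not particular to Ocln. Scores above 4 were found only in tumors given cediranib, so score and drug overlap in this fit. The part of epidermal cells in the Ocln values was not tested beyond this fit.

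**Figure D3:**
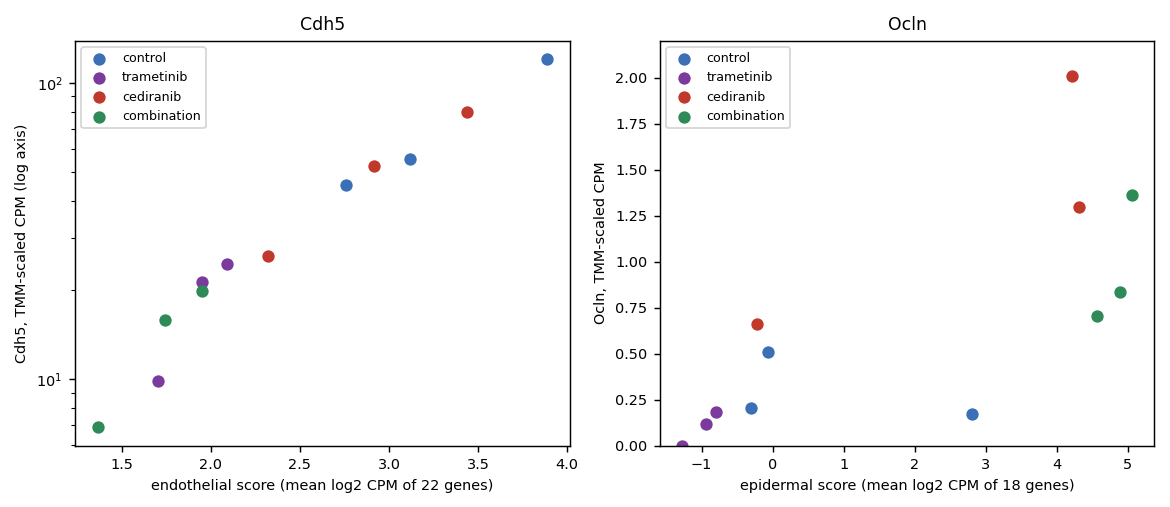
Left, Cdh5 (vertical axis, TMM-scaled CPM, log axis) against the endothelial score, the mean log2 CPM of 22 endothelial genes that include no member; right, Ocln (vertical axis, TMM-scaled CPM) against the epidermal score, the mean log2 CPM of 18 epidermal genes. Each point is 1 of 12 libraries colored by group; tumors given trametinib sit at endothelial scores of 1.36 to 2.09 and the others at 2.32 to 3.89, and all 3 combination libraries have epidermal scores above 4.5.

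Other genes of endothelial cells moved with Cdh5 and Pecam1. Of a list of 28 endothelial genes that holds none of the 10 members, 22 were tested. With trametinib against control 9 fell and none rose, with a median log2 fold change of -1.78, and with the combination against control 11 fell and none rose, with a median of -1.77. With trametinib given 12 fell and none rose, with a median of -1.501, against medians over all tested genes within 0.01 of zero. The 4 with the smallest FDR there were Sox7, an endothelial transcription factor (-1.53, FDR 0.000355), Nos3, the endothelial nitric oxide synthase (-2.22, FDR 0.000417), Cd93 (-2.86, FDR 0.00101) and Rasip1 (-2.05, FDR 0.00147). The list did not move as one. Eng, a TGF-beta co-receptor, had mean levels of 57.5, 58.6, 53.6 and 51.3 CPM in control, trametinib, cediranib and combination treated tumors, and Cd34 had 35.3, 33.9, 34.6 and 56.3 CPM. Eng and Cd34 were named after their values were seen.

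The order of the 12 libraries by Cdh5 was nearly the order by the endothelial score. 10 libraries had the same rank on both measures, and trametinib 2 and combination 3 exchanged neighbouring ranks. Tumors given trametinib had scores of 1.36 to 2.09, and the other tumors had 2.32 to 3.89. With the score as a term in the fit, the log2 fold change for trametinib given was 0.12 for Cdh5 and -1.95 for Pecam1 (FDR 0.146), and the genes that passed among all tested went from 2158 to 231. The score itself separates tumors with and without trametinib, so endothelial content and a change within endothelial cells cannot be told apart in this fit. By Pearson correlation of log2 CPM over the 12 libraries, genes among the 5 most like Cdh5 were Slit3 (r = 0.95), Cdc37 (r = 0.95), Sept11 (r = 0.94) and Tie1 (r = 0.94), and those most like Ocln were Myo5b (r = 0.96), Hdx (r = 0.94), Lamb3 (r = 0.92), Sprr2h (r = 0.92) and Gm18646 (r = 0.90). The libraries share the 4 treatments, so these values describe likeness of pattern and nothing else.

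Platelets and leukocytes also carry some of these molecules. Of 10 platelet genes 3 were tested, and Pf4, a platelet chemokine, fell with trametinib given (log2 fold change -1.37, FDR 0.0116), while the platelet receptors Gp6 and Clec1b were at 0 in all 12 libraries. Summed CPM of the platelet list ran from 5.67 to 13.8 in control, 2.79 to 3.897 in trametinib, 4.87 to 9.57 in cediranib and 4.45 to 5.07 in combination treated tumors. Of 11 macrophage genes 4 fell in combination against control and 1 fell with trametinib given. Of all tested genes 5.13% fell and 4.85% rose in combination against control, and 8.54% fell and 8.2% rose with trametinib given. The 1 of 11 is near that share, and nothing is read from it. Of 7 fibroblast genes 4 rose with trametinib given (Fbln1, Pdgfra, Dcn and Col3a1) and none fell, and in combination against control 1 rose and none fell. Summed CPM of the list ran from 2220 to 21100 in control, 8823 to 37040 in trametinib, 1748 to 6783 in cediranib and 3120 to 5918 in combination treated tumors. Of 6 skeletal muscle genes none passed with trametinib given, and their summed CPM ran from 17.2 to 16410 over the control tumors alone. Of 5 tested pericyte genes 1 rose with trametinib given and none fell, while in combination against control Abcc9, Pdgfrb and Rgs5 fell and 1 rose, with a median log2 fold change of -1.67. With trametinib given, of 3 tested lymphatic endothelial genes Flt4 fell. The part of these cells in the values of the members was not tested.

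Cediranib alone moved no member past the test. In cediranib against control 0 of 8 members passed, and 0% of all 12897 genes passed, with 557 genes and 1 member, Ocln, at an unadjusted p under 0.05 in the edgeR test. Cdh5 gave -0.48 (SE 0.50, 95% interval -1.56 to 0.60), Pecam1 gave -0.07 (SE 0.41, interval -0.98 to 0.83) and Esam gave -0.90 (SE 0.57, interval -2.14 to 0.34). These intervals are wide, and that of Cdh5 includes a 2-fold lower level.

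Adding cediranib to trametinib left Cdh5 at -0.38 (SE 0.52, FDR 0.749) and Pecam1 at -0.55 (SE 0.54, FDR 0.635) against trametinib alone, and 0 of 8 members passed in that comparison, where 0.969% of all genes did. Adding trametinib to cediranib gave -1.89 for Cdh5 (SE 0.52, FDR 0.0474), -2.86 for Pecam1 (SE 0.49, FDR 0.00665) and 0.44 for Tjp1 (SE 0.13, FDR 0.0702). 2 of 8 members fell there, where 3.78% of all genes fell, and the Cdh5 call was lost with any 1 library of these groups left out but cediranib 3. Trametinib against cediranib treated tumors gave -2.31 for Pecam1 (SE 0.47, FDR 0.0115) and -1.51 for Cdh5 (SE 0.51, FDR 0.0908), and with Ocln 2 of 8 members fell, where 4.47% of all genes fell. Ocln entered the test only through libraries given cediranib, and Pecam1 mainly through those without trametinib, so nothing is read from that share. The difference between the trametinib effect with and without cediranib was tested as an interaction, and 0% of all genes and 0 members passed. Its log2 value was 0.10 for Cdh5 (95% interval -1.46 to 1.66), -0.48 for Pecam1 (-1.95 to 0.99) and 1.04 for Ocln (-1.28 to 3.36), so interactions of more than 2-fold either way lie inside the intervals of Cdh5 and Ocln.

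Other genes of cell contacts were followed in 5 lists of 77 genes, of which 52 were tested. With trametinib given 7 rose (13.5%) and 9 fell (17.3%), where 8.2% of all tested genes rose and 8.54% fell, and the median log2 fold change was -0.015. In the leukocyte adhesion and immunoglobulin list 3 of 7 tested genes fell and none rose: Selp, the P-selectin of activated endothelium and platelets (-3.82, FDR 3.83e-05), Podxl (-1.92, FDR 0.000497) and Mcam, or CD146 (-2.08, FDR 0.00404). In the tight junction list 2 of 8 tested genes rose. They were Marveld1 (0.89, FDR 0.00575) and Cldn15 (2.52, FDR 0.0273).

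In the adherens junction list 3 of 11 tested genes fell and 1 rose. Cdh2, which encodes N-cadherin, fell by 0.72 (FDR 0.000987), Actn4 gave -0.31 (FDR 0.0224), Nectin1 gave -0.43 (FDR 0.0264), and Nectin3 rose by 0.53 on the log2 scale (FDR 0.0286). Of 5 connexins, Gja1, which encodes connexin 43, rose by 1.05 (FDR 0.000675), with means of 152, 336, 150 and 292 CPM. Of 21 tested junction regulators 3 rose and 3 fell. Heg1, a partner of the CCM complex (1.2, FDR 0.00258), and Angpt1, the ligand of TIE2 (2.05, FDR 0.00738), rose, and Rasa1, a Ras GTPase activating protein (-0.68, FDR 0.00222), fell. With cediranib given 2 of the 52 genes rose and none fell: Nectin4 and Gjb2, both also expressed by epidermis. Nectin4 had means of 4.06, 3.52, 8.54 and 17.02 CPM in control, trametinib, cediranib and combination treated tumors. Gjb2 was listed at a mean of 0 CPM in trametinib and 0.0283 CPM in control, against 2.26 CPM with cediranib and 2.44 CPM with the combination.

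**Figure D4:**
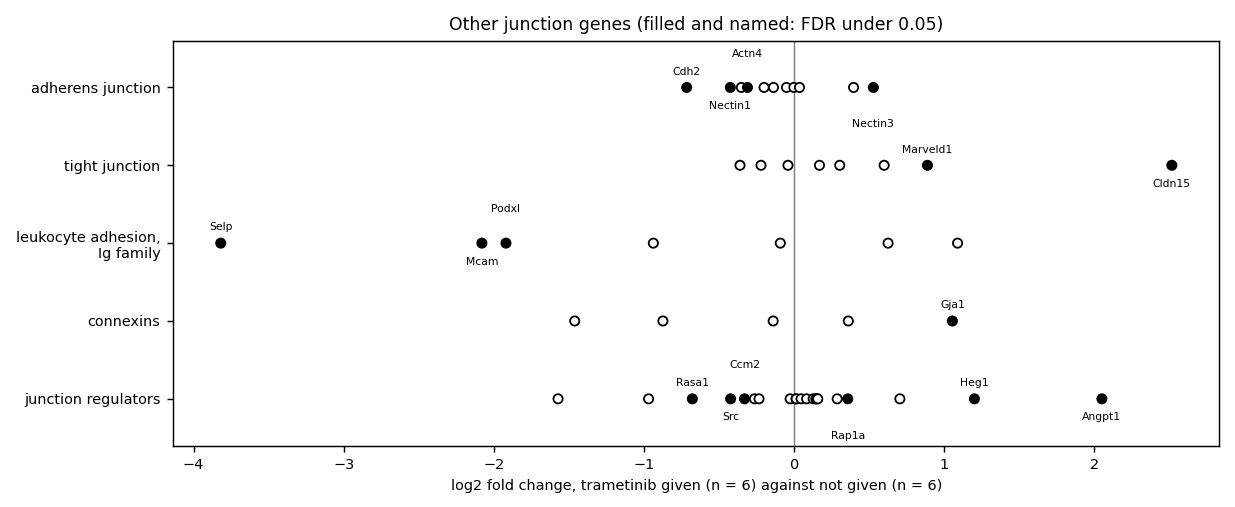
Log2 fold change (horizontal axis) for trametinib given (n = 6 tumors) against not given (n = 6) of 52 genes in 5 lists of cell contact genes (vertical axis). Each point is 1 gene, and filled, named points have an FDR under 0.05; 9 are below 0, with Selp farthest at -3.82, and 7 are above 0, with Cldn15 farthest at 2.52.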

How the data were processed

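RNA of 12 whole SVR tumors (4 treatments, 3 tumors each) was made into exome capture libraries, a method the authors chose because RNA in the tumors was degraded. Per the submitters' processing notes, the authors used bcl2fastq 1.8.4, STAR 2.7.1a and featureCounts 1.6.0 from Subread on GRCm38 and deposited raw counts per gene; no source used here gives the annotation release, strand setting or treatment of multiply mapped reads. Samples were grouped by their GEO titles. Of 54232 genes, 12897 were kept by filterByExpr of edgeR (count of at least 10, total of at least 15). Counts were fitted with R 4.3.3 and edgeR 4.0.16 (TMM, quasi-likelihood F test, 12 libraries, group means; biological coefficient of variation 27.2%, 8 residual degrees of freedom). SEs derive from the F statistic. DESeq2 1.42.0 served as an alternative. The scripts were tested on simulated data. Log2 CPM for scores and correlations used a prior count of 2. No 2 of the libraries held identical values. Members, gene lists and tests were chosen with earlier results of these data known. All 10 members were described, and for other lists up to 4 genes of smallest FDR per comparison were named, besides markers named for their levels; 1 gene of the cell contact lists and 1 of the genes most like Cdh5 are not reported here, and the list counts leave the former out. Promoters came from RefSeq (GRCm38.p6). Intervals are 95% and, for summed counts, exact (Clopper-Pearson) and cover counting error only. Alternatives covered scaling, filter, test, samples in the fit, replicate block, scores as covariates and each library left out.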

Additional observations from a re-analysis of the deposited data

How the results depend on the processing

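The number of the 8 tested members past the test changed with some settings, and the cause was not tested. With trametinib given, 5 members became 2 with an added log2 threshold of 1.5 and 3 when any 1 of 7 libraries was left out (range 3 to 5); with cediranib given, 1 became 3 without the filter (range 0 to 1 with 1 library left out). For trametinib against control the range with 1 library left out was 0 to 2, for the combination against control 1 to 2, for the combination against cediranib 1 to 2 and for trametinib against cediranib 1 to 2; it was 0 in the other 3 comparisons. DESeq2 gave 4 members in combination against control, where its calls over all genes went from 1286 to 1889. In combination against trametinib DESeq2, the edgeR likelihood ratio test and the unfiltered table each gave 1 member, against 0. Calls over all genes there were 717, 633 and 1411, against 125. Fitting the compared groups alone gave 1 in combination against cediranib and 1 in trametinib against cediranib, against 2 each. Calls over all genes went from 990 to 678 and from 1116 to 719 there.

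Correlations of deviations from group means ran from -0.22 to 0.36 between same-numbered libraries, and were above 0.1 in 3 of 18 pairs. Between libraries of different number they ran from -0.44 to 0.35, and were above 0.1 in 4 of 36 pairs. No pairing by number was seen, but such correlations cannot exclude one. With the replicate block, the members past the test went from 2 to 1 in trametinib against control and in combination against cediranib, from 5 to 3 with trametinib given and from 1 to 0 with cediranib given. Calls over all genes went, in that order, from 788 to 719, 990 to 788, 2158 to 1999 and 100 to 77.

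With the epidermal score in the fit, 0 members passed in combination against control, trametinib against cediranib and cediranib given, and 1 in combination against cediranib. Calls over all genes went, in that order, from 1286 to 107, 1116 to 258, 100 to 0 and 990 to 573. Values that changed sign were Jam3 at -0.094 (trametinib against control), 0.68 (combination against control) and 0.32 (cediranib given), Pecam1 at 0.029 (cediranib against control), and Cdh5 at 1.06 (combination against trametinib) and 0.52 (cediranib given). With the endothelial score in the fit, 0 members passed in trametinib against control, combination against control, combination against cediranib, trametinib given and cediranib given. Calls over all genes went, in that order, from 788 to 182, 1286 to 17, 990 to 154, 2158 to 231 and 100 to 28. Cdh5 then stood at 0.18 (trametinib against control), 0.074 (cediranib against control), 0.13 (combination against control), 0.055 (combination against cediranib), 0.11 (trametinib against cediranib), 0.12 (trametinib given), 0.00971 (cediranib given) and -0.13 (interaction). Esam stood at 0.58, 0.83 and 0.96 in trametinib against control, combination against control and trametinib given, Cldn5 at 0.39 in trametinib against control, Jam3 at 1.55 in combination against control and Pecam1 at 0.048 in cediranib against control.

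With 1 library left out, values whose sign changed ranged from -0.027 to 0.92 for Jam3 and -1.36 to 0.27 for Cldn5 in trametinib against control, -0.082 to 0.49 for Jam3 with trametinib given, -0.91 to 0.068 for Cdh5 and -0.34 to 0.16 for Pecam1 in cediranib against control, and -0.45 to 0.53 for Cdh5 and -1.10 to 0.017 for Pecam1 in the interaction. Library totals in place of TMM shifted the median of all genes by 0.13 in combination against control. The genes past the test with cediranib given went from 100 to 1281 without the filter and to 565 with DESeq2, and ran from 1 to 339 with 1 library left out.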
